A study of Mus musculus with 10 samples.

Results

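Occupancy by Cirbp and Rbm3 was compared gene by gene in mouse embryonic fibroblasts, from 1 PAR-CLIP library of each protein. Genes were taken where the mean of the summed FPKM (a level scaled to transcript length and to the number of mapped fragments) over 8 RNA-seq libraries reached 1, and a site was counted for a gene when it overlapped the mm9 locus of any listed transcript by at least 1 base. Of 22552 listed genes 10901 passed that minimum, and 1507 of them (13.8%) held at least 1 site of either protein. The other 9394 held none. PAR-CLIP was done at 37 °C on lines with stable expression of Cirbp or Rbm3 carrying a FLAG tag, fed 100 µM 4-thiouridine for 16 h and immunoprecipitated with anti-Flag, so the tagged and not the endogenous proteins were recovered. No untagged line and no input library was used here. The RNA-seq libraries hold polyadenylated RNA of mock-transfected fibroblasts at 32 °C, fibroblasts transfected with siCirbp at 37 °C, fibroblasts transfected with siRbm3 at 37 °C and mock-transfected fibroblasts at 37 °C, 2 libraries each, and the labels list no control siRNA. The strain, the number of clones per tagged line and whether paired libraries come from separate cultures are not given in the sources used here, so p-values reflect the spread between libraries, which may be technical.

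Cirbp and Rbm3 are small glycine-rich proteins with a single RNA recognition motif, and both are known to be induced by mild cold. In PAR-CLIP the thiouridine taken up into RNA is crosslinked to the bound protein by long-wave ultraviolet light, and the crosslinked base reads as a T-to-C change, so sites can fall only where a uridine lies. A site list holds the places that passed a caller's filter and is not a measure of affinity. Long and abundant RNAs give more crosslinked reads and so more places that can pass.

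The smallest bound RNAs show the sites at base resolution. Sites fell in 23 miRNA genes, and 20 of these could be matched to a RefSeq hairpin (GRCm38.p6) by symbol and by a locus of equal length. Those 20 held 12 Cirbp sites and 14 Rbm3 sites, of which all 26 lay on the strand of the hairpin, over a mature arm, with the crosslinked base inside that arm and a U at that base. Mature arms are printed 5′ to 3′ with the seed (bases 2 to 8) in capitals. The first set is shown because both proteins had a site on the same arm.
miR-148a-3p: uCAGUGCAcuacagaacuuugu
miR-148b-3p: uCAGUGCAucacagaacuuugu
miR-425-5p: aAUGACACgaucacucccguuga
miR-3064-5p: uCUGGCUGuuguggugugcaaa
let-7b-5p: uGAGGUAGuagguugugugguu

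In miR-425-5p the site of Cirbp and the site of Rbm3 had the same ends, chr9:108471120-108471144 on the plus strand (mm9), and the same crosslinked base, position 21 of the arm. In let-7b-5p both proteins were crosslinked at position 6, inside the seed. The crosslinked base differed in the other 3 arms. It was position 20 for Cirbp and 19 for Rbm3 in miR-148a-3p, 19 for Cirbp and 20 for Rbm3 in miR-148b-3p, and 3 for Cirbp and 10 for Rbm3 in miR-3064-5p. The miR-148a and miR-148b arms share their seed.

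The second set is shown for seeds shared between arms that had a site of a single protein or, for let-7i, with an arm above, and miR-184-3p for its score.
miR-10a-5p: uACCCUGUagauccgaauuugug
miR-10b-5p: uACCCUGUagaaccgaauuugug
miR-92a-3p: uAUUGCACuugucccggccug
miR-25-3p: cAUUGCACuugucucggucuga
let-7i-5p: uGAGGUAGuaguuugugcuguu
miR-184-3p: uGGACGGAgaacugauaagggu

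The miR-10a-5p and miR-10b-5p arms, with 1 seed, each held a Cirbp site and no Rbm3 site. The miR-92a-3p arm held a Cirbp site and the miR-25-3p arm, with the same seed, an Rbm3 site. The let-7i-5p arm, with the seed of let-7b, held an Rbm3 site crosslinked at position 6, as in let-7b. The Cirbp site on miR-184-3p, chr9:89697099-89697122 on the minus strand, had a score of 1000, the highest the lists give. Of the 3 Cirbp sites with that score it was the only one in a matched miRNA, and none of the 14 Rbm3 sites with that score was in one. The mean FPKM reached 1 for 9 of the 20 miRNA genes and was listed at 0 for 11, in RNA selected for poly(A). Mir3471-1, Mir451 and Mir5109 were the genes without a match.

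Sites of Cirbp were found in 907 expressed genes (8.32% of those tested) and sites of Rbm3 in 958 (8.79%). Both proteins had sites in 358 genes (3.28%), which is 39.5% of the Cirbp genes and 37.4% of the Rbm3 genes. Sites of Cirbp only were in 549 genes (5.04%), and sites of Rbm3 only in 600 (5.50%). In all, 1507 site counts of Cirbp and 1565 of Rbm3 fell in expressed genes, so the Cirbp share of sites was 49.1% (exact Clopper-Pearson 95% interval 47.3 to 50.8). Intervals here cover counting error alone, since each protein has 1 library and the read depth of the PAR-CLIP libraries is unknown. They treat each site count as independent, although sites cluster within genes. Some sites also count for more than 1 gene, since the counts come from 1478 Cirbp and 1530 Rbm3 sites. The intervals may therefore be too narrow. No gene-level test between the proteins was possible, and differences are called by rules of size. A count of 0 allows up to 3 sites, which is 0.199% of the Cirbp sites and 0.192% of the Rbm3 sites.

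**Figure D1:**
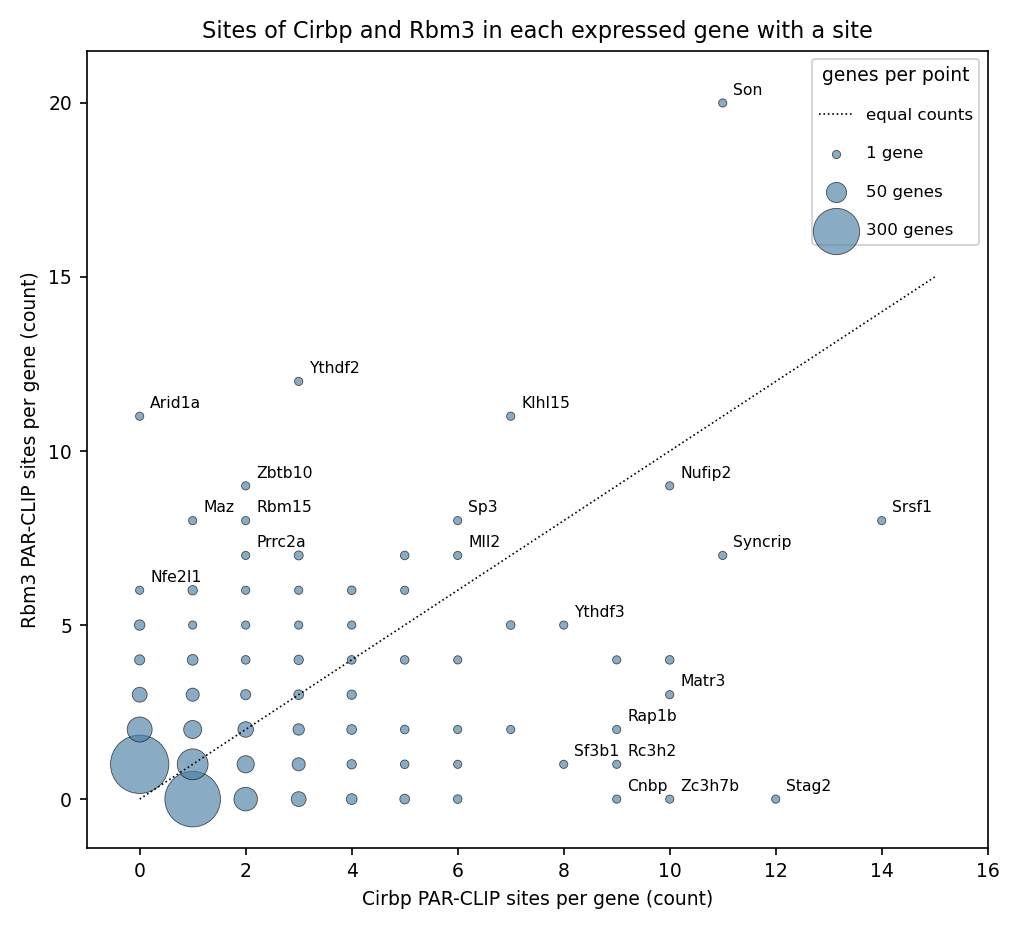
Number of Cirbp sites (horizontal axis, count per gene) against number of Rbm3 sites (vertical axis, count per gene) for the 1507 expressed genes with a site. The area of a point grows with the number of genes at that pair of counts, the dotted line marks equal counts, and the genes with the largest differences or the largest shared counts are named. Most genes held a single site, and Son stands highest with 11 Cirbp and 20 Rbm3 sites.

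Most bound genes held a single site of a protein. Of the Cirbp genes 633 held 1 Cirbp site and 130 held 3 or more, with 14 as the highest count. Of the Rbm3 genes 668 held 1 Rbm3 site and 125 held 3 or more, with 20 as the highest count. The genes with sites of both proteins, fewer than either single class, held 50% of the Cirbp sites in expressed genes and 49.6% of the Rbm3 sites. Their median level was 23.7 FPKM and the median length of their highest transcript 4169 nt. The medians were 23.7 FPKM and 3685 nt for genes with Cirbp sites only, 16.1 FPKM and 3466 nt for genes with Rbm3 sites only, and 12.5 FPKM and 2623 nt for genes without a site. Among the bound classes the medians of both level and length were lowest for Rbm3 only.

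**Figure D2:**
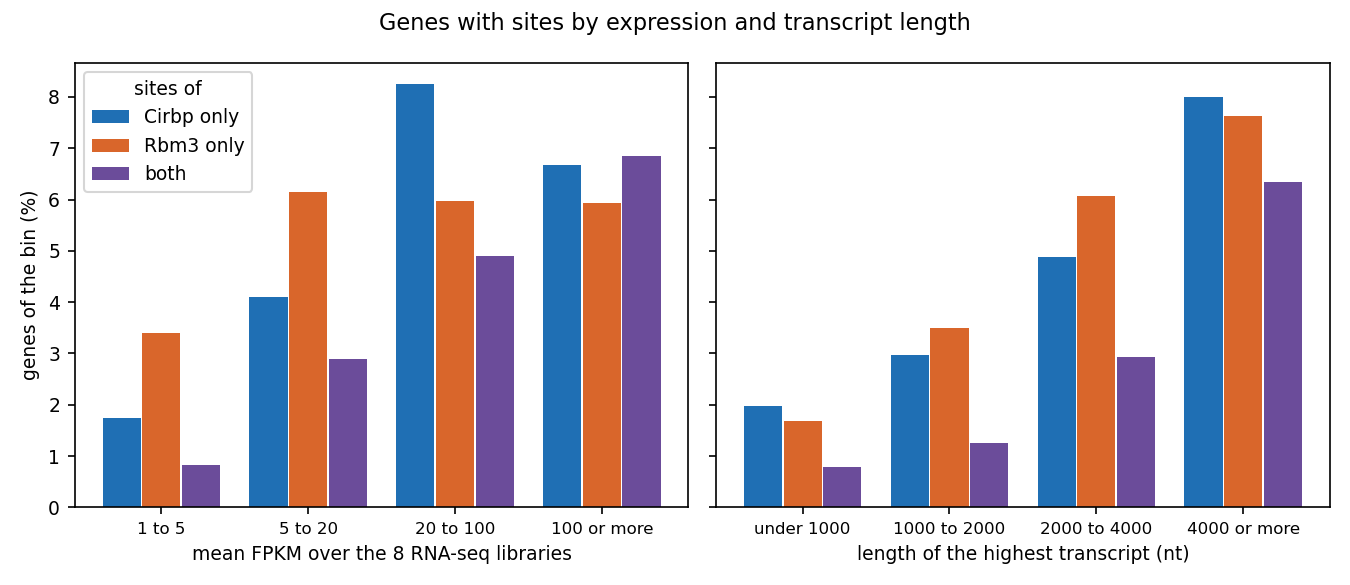
Share of expressed genes (vertical axis, % of the genes of a bin) with sites of Cirbp only, of Rbm3 only or of both, by mean FPKM (left) and by transcript length in nt (right). Genes with Cirbp sites only made up 1.75% of genes at 1 to 5 FPKM and 8.25% at 20 to 100 FPKM, and all classes were most frequent among transcripts of 4000 nt or more.

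The share of Cirbp among the sites differed between levels of expression. It was 38.6% at 1 to 5 FPKM, 41.2% at 5 to 20, 54.8% at 20 to 100 and 56.6% at 100 FPKM or more. With 4 bins of transcript length it lay between 45.2% and 51.7%. The part of expression level in the leans of gene groups was not tested beyond the level bins given beside the largest groups.

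On the gene the sites of the 2 proteins lay differently. For genes whose strand RefSeq gives, 98.9% of Cirbp sites and 98.8% of Rbm3 sites were on the sense strand. Measured from the 5′ end to the 3′ end of the gene locus, introns included, the median sense site lay at 81.7% for Cirbp and 69.9% for Rbm3. The last 10% of the locus held 38.3% of 1113 sense Cirbp sites and 27.2% of 1188 sense Rbm3 sites. The first 10% held 3.05% of the Cirbp sites and 12.96% of the Rbm3 sites. Within 1000 nt of the 5′ end there were 30 sites of Cirbp and 172 of Rbm3, and within 1000 nt of the 3′ end 221 of Cirbp and 172 of Rbm3. A shared gene was often not a shared site. In the genes with sites of both proteins 33.6% of the Cirbp sites overlapped an Rbm3 site, and 32.8% of the Rbm3 sites overlapped a Cirbp site.

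Among single genes, 309 had at least 3 sites in all. Of these, 70 had at least 75% of their sites from Cirbp (0.642% of expressed genes) and 73 at least 75% from Rbm3 (0.670%). Just inside that limit, 16 genes had 3 Cirbp sites and 1 Rbm3 site, and 16 had 1 Cirbp site and 3 Rbm3 sites. Just outside it, 34 genes had 2 Cirbp sites and 1 Rbm3 site, and 38 had 1 Cirbp site and 2 Rbm3 sites. Membership of 8 lists of RNA-binding and RNA-processing proteins was more frequent among genes leaning to Cirbp than among those leaning to Rbm3. Of the 70, 17 were in at least 1 of these lists (24.3%), against 6 of the 73 leaning to Rbm3 (8.22%). The lists do not hold every RNA-binding protein, so these counts depend on which genes were listed. Of the 358 genes with sites of both proteins 56 were in these lists (15.6%). Of all 10901 expressed genes, most of them without a site, 269 were (2.47%).

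The 8 genes with the largest excess of Cirbp over Rbm3 sites were led by Stag2, a subunit of the cohesin ring, with 12 Cirbp sites and 0 Rbm3 sites over chrX:39502589-39630352 (mm9). Zc3h7b, a CCCH zinc finger protein, held 10 Cirbp sites and 0 Rbm3 sites, and Cnbp, a zinc knuckle protein that binds single-stranded nucleic acids, held 9 Cirbp sites and 0 Rbm3 sites. Rc3h2, which codes for the mRNA-decay factor Roquin-2, held 9 Cirbp sites and 1 Rbm3 site. These 4 span mean levels from 12.3 FPKM for Rc3h2 to 216 FPKM for Cnbp, and each had at least 9 Cirbp sites. The nuclear matrix RNA-binding protein gene Matr3 had 10 Cirbp sites and 3 Rbm3 sites. The small GTPase gene Rap1b had 9 Cirbp sites and 2 Rbm3 sites. Sf3b1, a core part of the U2 snRNP, had 8 Cirbp sites and 1 Rbm3 site. Srsf1, an SR splicing factor, had the highest Cirbp count of any gene, 14, beside 8 Rbm3 sites, which is short of the 75% that counts as a lean, and 7 of its Cirbp sites overlapped an Rbm3 site.

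The 8 genes with the largest excess of Rbm3 over Cirbp sites were led by Arid1a, a DNA-binding subunit of the BAF chromatin remodeller, with 0 Cirbp sites and 11 Rbm3 sites over chr4:133234923-133309526 (mm9). Son, with 11 Cirbp sites and 20 Rbm3 sites, was also among these 8. Ythdf2, a reader of N6-methyladenosine that speeds mRNA decay, held 3 Cirbp sites and 12 Rbm3 sites, and each of its 3 Cirbp sites overlapped an Rbm3 site. Zbtb10, a BTB zinc finger factor, held 2 Cirbp sites and 9 Rbm3 sites, and Maz, a zinc finger factor that binds GC-rich promoters, held 1 Cirbp site and 8 Rbm3 sites. Rbm15, which is part of the complex that writes N6-methyladenosine, held 2 Cirbp sites and 8 Rbm3 sites. Nfe2l1, the factor that drives proteasome genes, held 0 Cirbp sites and 6 Rbm3 sites. Prrc2a, an RNA-binding proline-rich protein, held 2 Cirbp sites and 7 Rbm3 sites.

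The genes with the most sites of both were of mixed function. Son, a nuclear speckle protein needed for splicing, held 11 Cirbp sites and 20 Rbm3 sites, of which 4 Cirbp sites overlapped an Rbm3 site. Nufip2, known as a partner of the fragile X protein, held 10 Cirbp sites and 9 Rbm3 sites, and Syncrip, an hnRNP, held 11 Cirbp sites and 7 Rbm3 sites. Klhl15, a substrate adaptor of a ubiquitin ligase, held 7 Cirbp sites and 11 Rbm3 sites at a mean level of 3 FPKM, the lowest of the genes named here for shared counts. Sp3, a GC-box transcription factor, held 6 Cirbp sites and 8 Rbm3 sites. The histone methyltransferase gene Mll2 held 6 Cirbp sites and 7 Rbm3 sites, and Ythdf3, another N6-methyladenosine reader, held 8 Cirbp sites and 5 Rbm3 sites. Cirbp and Rbm3 themselves held 0 sites of either protein, at mean levels of 19.9 and 3.53 FPKM.

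**Figure D3:**
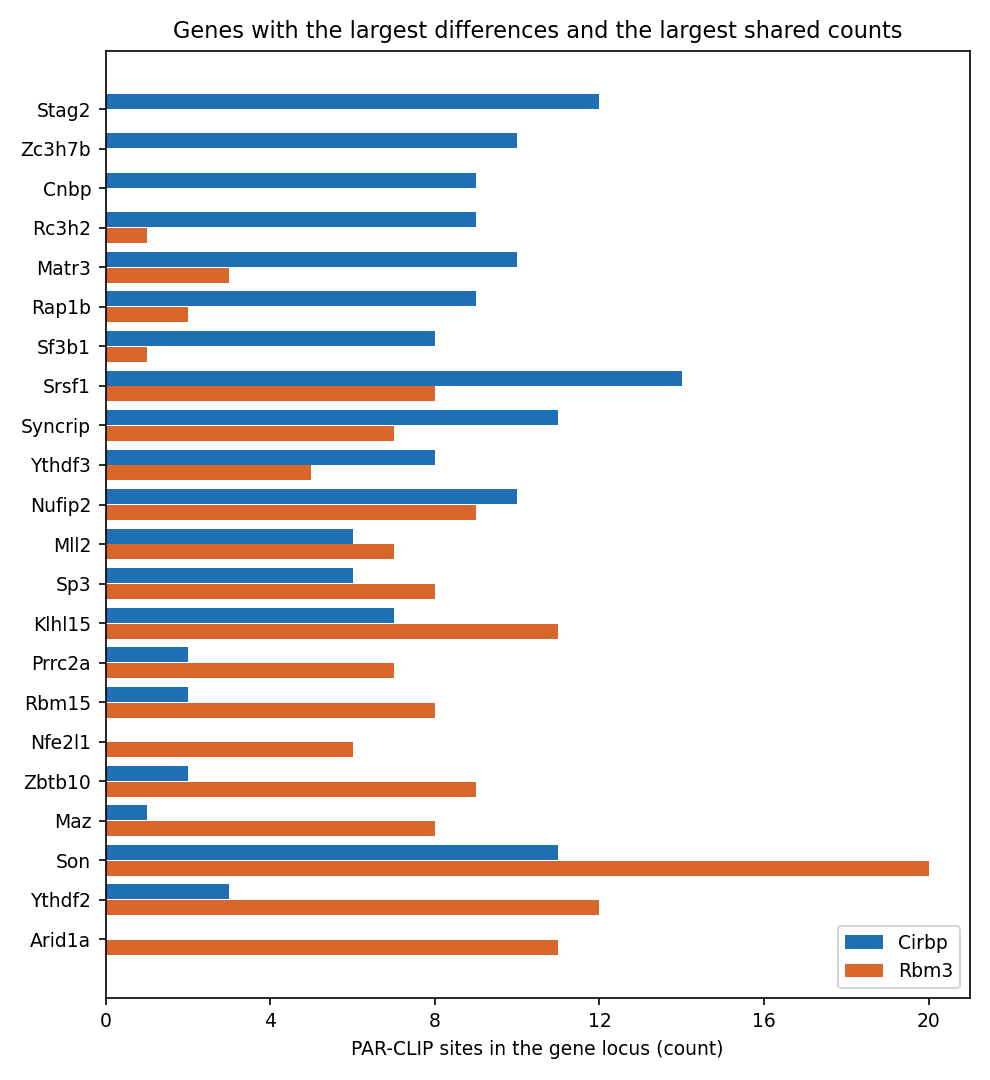
Sites per gene (horizontal axis, count) of Cirbp (upper bar of each pair) and Rbm3 (lower bar) for the genes with the largest difference in either direction and the largest shared counts, ordered by Cirbp minus Rbm3. Stag2, with 12 and 0 sites, is at the Cirbp end and Arid1a, with 0 and 11, at the Rbm3 end.

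Functional groups were compared over 50 gene lists. A list leaned to a protein when it held at least 10 sites and its ratio of Cirbp to Rbm3 sites was 1.5 times that of all expressed genes or more, or was smaller than that of all genes by the same factor. By this rule 11 lists leaned to Cirbp and 5 to Rbm3. Another 17 had at least 10 sites and no lean, and 17 had fewer, 3 of them with no site. The median expressed gene of the whole table held 0 sites.

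The group of RNA-binding proteins was bound more often than other expressed genes and leaned to Cirbp. Its lists were chosen with earlier results of these data known. Over the 8 lists of such genes, 119 of 269 expressed genes were bound (44.2%), with 262 Cirbp sites and 166 Rbm3 sites, a Cirbp share of 61.2% (exact interval 56.4 to 65.9). In the 10632 expressed genes outside these lists 13.1% were bound, and the Cirbp share was 47.1% (45.2 to 49.0). Bound shares of the 8 single lists ran from 25% for spliceosome core to 78.9% for hnRNPs, and chromatin regulators, outside them, had 34.3%. At 1 to 20 FPKM 27.4% of the genes in the 8 lists were bound, 10.5% of those outside and 42.9% of nuclear pore and nuclear transport genes. At 20 FPKM or more these bound shares were 55.2%, 17.6% and 37.9%. At 20 FPKM or more the Cirbp share of sites was 63.8% (58.6 to 68.8) in the 8 lists and 52.9% (50.2 to 55.5) in the other genes. At 1 to 20 FPKM it was 47.0% (34.6 to 59.7) in the 8 lists and 40.5% (37.8 to 43.3) in the other genes, and these intervals overlap. In both sets of genes the Cirbp share was higher at 20 FPKM or more.

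Within that group the hnRNPs, which coat nascent transcripts, had sites in 15 of 19 expressed genes, with 41 Cirbp and 26 Rbm3 sites and a median of 2 sites per gene. Hnrnpa2b1 held 7 Cirbp and 5 Rbm3 sites, Hnrnph1 6 Cirbp and 2 Rbm3 sites, Hnrpdl 5 Cirbp and 4 Rbm3 sites, and Hnrnpab 3 Cirbp and 4 Rbm3 sites. The list of other RNA-binding regulators held 87 Cirbp and 50 Rbm3 sites in 31 of 43 genes, also with a median of 2. Beside Syncrip and Matr3 it was led by Serbp1, a ribosome-associated protein, with 7 Cirbp and 5 Rbm3 sites, and the splicing regulator Mbnl1, with 7 Cirbp and 2 Rbm3 sites. The DEAD-box and DEAH-box helicases, which remodel RNA, held 34 Cirbp and 17 Rbm3 sites in 15 of 50 genes. Ddx3x held 10 Cirbp and 4 Rbm3 sites, Ddx39b 4 Cirbp and 2 Rbm3 sites and Dhx9 4 Cirbp and 0 Rbm3 sites, while Ddx5 held 4 Cirbp and 6 Rbm3 sites.

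The spliceosome core list held 20 Cirbp and 8 Rbm3 sites in 13 of 52 genes. It takes in Lsm14a, with 2 Cirbp and 0 Rbm3 sites, which the mRNA decay list also holds, and Lsm12, with 1 Cirbp and 0 Rbm3 sites. Sf3b1 alone gave 8 of the Cirbp sites, Prpf4b had 3 Cirbp and 0 Rbm3 sites, and Prpf8, the large protein at the catalytic centre, went the other way with 1 Cirbp and 3 Rbm3 sites. The 7 cold-inducible and cold-shock-domain genes, the family of the 2 proteins studied, held 9 Cirbp and 3 Rbm3 sites in 4 genes. Among its members Csda held 2 Cirbp and 0 Rbm3 sites, Rbmx 1 of each and Ybx1 1 Cirbp and 0 Rbm3 sites. The list does not lean in every alternative setting, and the intervals of the cold-shock and hnRNP lists, 42.8 to 94.5% and 48.5 to 72.9%, include the 49.1% of all genes.

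Not all RNA-binding groups leaned. SR proteins and their kinases held 28 Cirbp and 26 Rbm3 sites in 10 of 21 genes, a Cirbp share of 51.9% (37.8 to 65.7). Srsf2 and Srsf6 held 4 Cirbp and 3 Rbm3 sites each, whereas Srrm2, a scaffold of nuclear speckles, held 1 Cirbp and 6 Rbm3 sites. The mRNA decay and small RNA machinery held 37 Cirbp and 29 Rbm3 sites in 23 of 56 genes, and the cleavage, polyadenylation and poly(A)-binding factors 9 Cirbp and 7 Rbm3 sites in 10 of 24. Pabpc1, the main cytoplasmic poly(A)-binding protein, held 4 Cirbp and 1 Rbm3 sites. Translation initiation and elongation factors held 23 Cirbp and 17 Rbm3 sites in 12 of 61 genes, just below the limit for a lean. Eif4g2 held 10 Cirbp and 4 Rbm3 sites, and Eif5a 2 Cirbp and 3 Rbm3 sites.

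**Figure D4:**
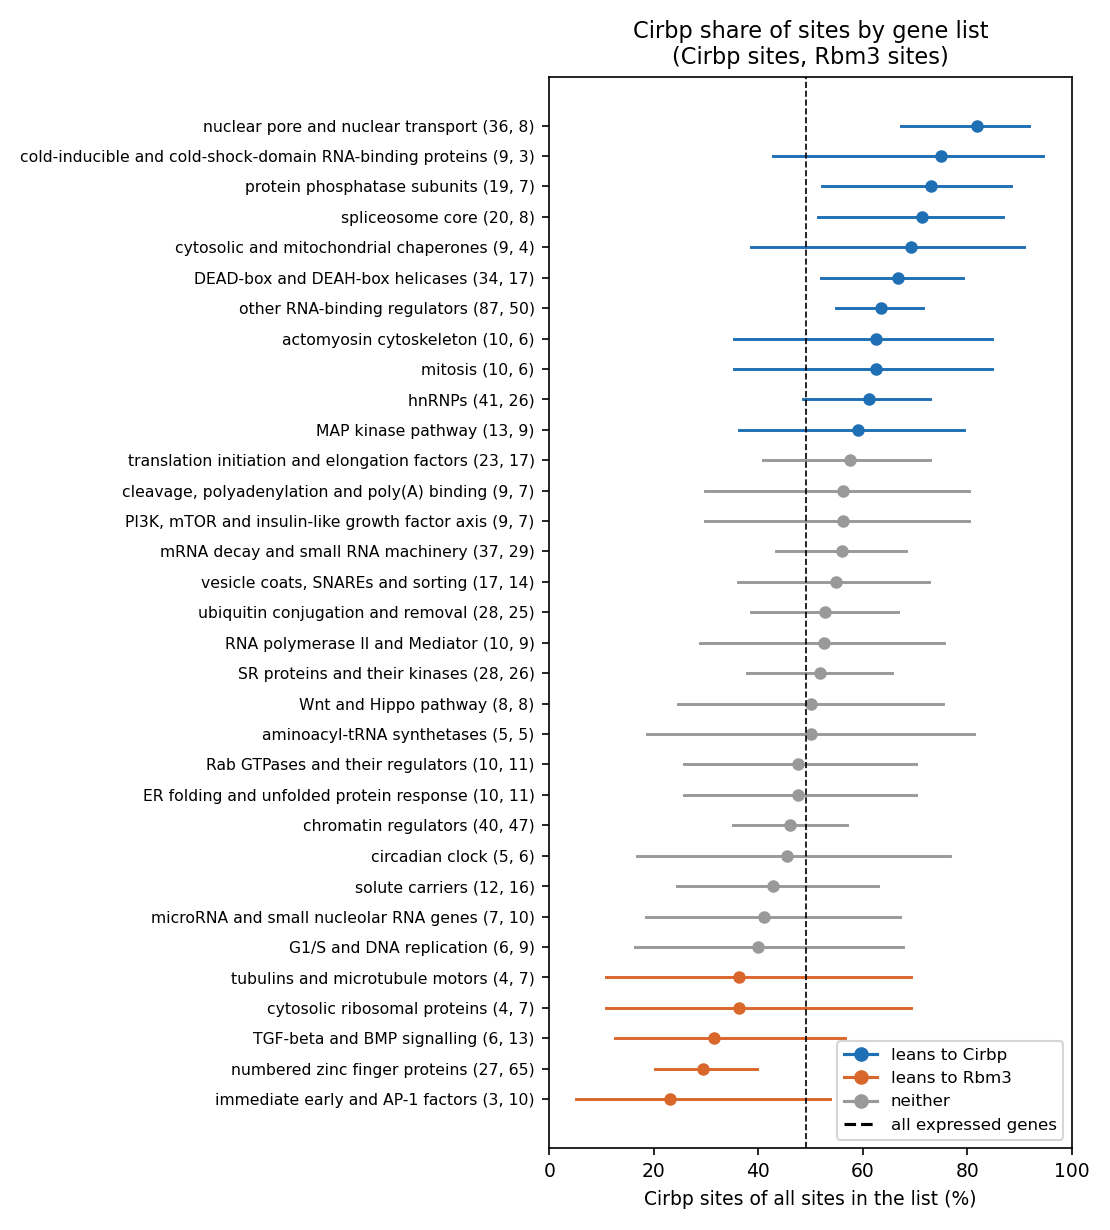
Cirbp sites as a share of all sites (horizontal axis, %) in each gene list with at least 10 sites, with exact 95% intervals for counting error and, in brackets, the Cirbp and Rbm3 site counts. The dashed line marks the 49.1% of all expressed genes. Nuclear pore and transport genes lie farthest toward Cirbp at 81.8%, and immediate early and AP-1 factors farthest toward Rbm3 at 23.1%.

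Outside RNA metabolism, nuclear pore and nuclear transport genes had the highest Cirbp share of the lists with at least 10 sites. They held 36 Cirbp and 8 Rbm3 sites in 20 of 50 genes (40.0%), a share of 81.8% (67.3 to 91.8). Kpna4, an importin alpha, held 6 Cirbp and 0 Rbm3 sites. Ranbp2, the large protein of the cytoplasmic pore filaments, held 4 Cirbp and 1 Rbm3 sites, and Kpnb1, importin beta, 3 Cirbp and 1 Rbm3 sites. Only Cirbp sites were found in 14 of the 20 genes and only Rbm3 sites in 2. The share was 88.9% (70.8 to 97.6) for members at 20 FPKM or more and 70.6% (44.0 to 89.7) for those at 1 to 20 FPKM.

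Protein phosphatase subunits held 19 Cirbp and 7 Rbm3 sites in 13 of 50 genes, although Ppp2ca, the catalytic subunit of PP2A, held 3 Cirbp and 4 Rbm3 sites. Ppp1r15b, which directs PP1 to the initiation factor eIF2 alpha, held 3 Cirbp and 1 Rbm3 sites. Chaperones of the cytosol and mitochondria held 9 Cirbp and 4 Rbm3 sites in 9 of 37 genes, led by Hspa4 with 3 Cirbp and 1 Rbm3 sites. Mitosis genes held 10 Cirbp and 6 Rbm3 sites in 7 of 47, led by the checkpoint gene Bub3 with 5 Cirbp and 1 Rbm3 sites, and the list does not lean without it. Actomyosin genes held 10 Cirbp and 6 Rbm3 sites in 14 of 54, and the MAP kinase pathway 13 Cirbp and 9 Rbm3 sites in 11 of 61, just past the limit. The intervals of the chaperone, mitosis, actomyosin and MAP kinase lists all include the 49.1% of all genes.

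Rbm3 led in the numbered zinc finger proteins, most of which are DNA-binding factors. These 275 genes held 27 Cirbp and 65 Rbm3 sites in 44 genes (16.0%), a Cirbp share of 29.3% (20.3 to 39.8). Sites of Rbm3 only were in 27 of the 44, sites of Cirbp only in 8 and both in 9. Zfp238 held 3 Cirbp and 7 Rbm3 sites, Zfp281 3 Cirbp and 6 Rbm3 sites, and Zfp91 1 Cirbp and 4 Rbm3 sites, while Zfp207 held 3 Cirbp and 2 Rbm3 sites. These genes had a low median level, 5.39 FPKM. Their Cirbp share at 1 to 20 FPKM was 25.8% (15.8 to 38.01), against 40.5% (37.8 to 43.3) over genes of that level outside the RNA-binding lists. At 20 FPKM or more it was 38.5% (20.2 to 59.4), against 52.9% (50.2 to 55.5), and these intervals overlap. The part of level in this lean was not tested further.

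The other lists leaning to Rbm3 were smaller. TGF-beta and BMP signalling genes held 6 Cirbp and 13 Rbm3 sites in 11 of 34 genes. The Smad corepressor Ski held 1 Cirbp and 3 Rbm3 sites and the receptor Bmpr2 0 Cirbp and 2 Rbm3 sites, whereas Smad4, the shared Smad, held 2 Cirbp and 0 Rbm3 sites and Smad5 1 of each. Immediate early and AP-1 factors held 3 Cirbp and 10 Rbm3 sites in 7 of 22 genes, and Jun alone gave 5 of the Rbm3 sites. Srf held 0 Cirbp and 2 Rbm3 sites, Klf9 1 of each, and Egr1 1 Cirbp and 0 Rbm3 sites. Tubulins and microtubule motors held 4 Cirbp and 7 Rbm3 sites in 8 of 53 genes, with Tubb5 at 0 Cirbp and 2 Rbm3 sites. Cytosolic ribosomal proteins held 4 Cirbp and 7 Rbm3 sites in 6 of 68, with Rps3 at 2 of each; these genes have many near-identical copies, among which reads may have been split. All 4 of these smaller lists have intervals that include 49.1%. Without the member with most sites the tubulin, ribosomal and immediate early lists held 9, 7 and 8 sites, too few for the rule. Their ratios relative to all genes were then 0.83, 0.42 and 0.62. The ribosomal and immediate early ratios were still past the limit for Rbm3, and the tubulin ratio was not. These lists also did not lean by the rule with sites of at least the median score. The lean to Rbm3 held in 12 of 16 settings for tubulins, 11 for ribosomal proteins and 14 for immediate early factors.

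Several large groups were shared almost evenly. Chromatin regulators held 40 Cirbp and 47 Rbm3 sites in 34 of 99 genes, with Arid1a giving 11 of the Rbm3 sites. Hdac2 held 3 Cirbp and 1 Rbm3 sites, and Ep300 3 Cirbp and 2 Rbm3 sites. Ubiquitin conjugation and removal genes held 28 Cirbp and 25 Rbm3 sites in 32 of 133, where 4 genes held 4 sites each. These were Cul3 with 2 of each, Ube3a with 4 Cirbp and 0 Rbm3 sites, Ube2w with 3 Cirbp and 1 Rbm3 sites, and Fbxw2 with 0 Cirbp and 4 Rbm3 sites. Vesicle coats, SNAREs and sorting genes held 17 Cirbp and 14 Rbm3 sites in 17 of 135. ER folding genes held 10 Cirbp and 11 Rbm3 sites in 11 of 31, but from different genes, with Atf4 at 0 Cirbp and 5 Rbm3 sites, the chaperone Hspa5 at 1 Cirbp and 4 Rbm3 sites and Hsp90b1 at 3 Cirbp and 0 Rbm3 sites. Circadian clock genes held 5 Cirbp and 6 Rbm3 sites in 6 of 22, including Csnk1d, the kinase of the PER proteins, with 1 Cirbp and 3 Rbm3 sites.

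Genes of the fibroblast matrix and of glycolysis held few sites or none. No site was found in 18 collagen genes (median 50.3 FPKM), 20 glycolysis genes (74.99 FPKM) and 26 interferon and antigen presentation genes (9.41 FPKM, below the 13.4 FPKM of all expressed genes). Matrix glycoproteins and proteoglycans, at a median of 49.1 FPKM, held 0 Cirbp sites and 1 Rbm3 site in 23 genes, in Vcan. The matrix-modifying enzymes held 0 Cirbp sites and 1 Rbm3 site in 36 genes, in Timp3. Respiratory chain and ATP synthase genes had the highest of these medians, 79.3 FPKM, and held 6 Cirbp and 2 Rbm3 sites in 5 of 77 (6.49%). Their median transcript was short, 681 nt, and of all expressed genes under 1000 nt 4.43% held a site. The part of length in these counts was not tested. Over all expressed genes 13.8% held a site. The proteasome held 8 Cirbp sites and 1 Rbm3 site in 9 of 41 genes (22.0%), at medians of 62.1 FPKM and 1420 nt. Of all expressed genes 19.1% held a site at 20 to 100 FPKM, and 7.72% at 1000 to 2000 nt. The part of level and length in this share was not tested. Each of the 9 genes had a single site, and the total is 1 site short of the minimum for the rule.

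The RNA-seq libraries had 24800000 to 27800000 mapped fragments. In bulk RNA, fewer cells of a type and less RNA per cell cannot be told apart. Of 12 genes listed as fibroblast markers 11 were expressed, with a summed level of 5846 to 12792 FPKM per library, while Thy1 was at 0 in every library. That sum was led by S100a4 and Vim, with medians of 4766 and 1943 FPKM. Col1a1 and Fn1 followed at 610 and 602 FPKM, and Pdgfra was the lowest of the 11 at 11.96 FPKM. Summed markers of macrophages, epithelium, endothelium, muscle and nerve reached at most 77.4 FPKM in any library. Some of these markers were expressed in every library. In the nerve list Sox2 had 10.4 to 38.9 FPKM and Nes 6.77 to 38.7 FPKM, and in the muscle list Tnnt2 had 36.6 to 66.2 FPKM. All other markers of these lists had medians of at most 13.4 FPKM, that of Flt1. Which cells gave these levels was not tested. Cirbp had 34.5 and 37.2 FPKM at 32 °C, 10.8 and 6.07 FPKM in siCirbp libraries, and 15.9 and 17.1 FPKM in mock libraries at 37 °C. Both siCirbp values were the lower, but the fall did not pass (log2 difference -0.94, SE 0.30, limma adjusted p = 0.116). Rbm3 had 3.05 and 1.16 FPKM in the libraries labelled siRbm3, against 1.85 and 2.21 FPKM in mock 37 °C libraries, so library 1 of that label went against it. It had 3.64 and 3.20 FPKM at 32 °C, both above the mock 37 °C values, but the difference did not pass (log2 difference 0.55, limma adjusted p = 0.191). In siCirbp libraries Rbm3 had 5.54 and 7.55 FPKM, also above mock, and did not pass (log2 difference 1.31, limma adjusted p = 0.0588).

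At 32 °C, over all transcript lengths, genes with Cirbp sites only were called lower about as often as all genes, and genes with Rbm3 sites only more often. Against genes without a site, the standing of Cirbp only differed with length. It was 21.2% against 33.1% at 4000 nt or more, and 12.2% against 10.5% at 1000 to 2000 nt. Of 10901 genes tested with limma, 19.8% were called lower and 13.0% higher. Of the genes with Cirbp sites only, 97 of 549 (17.7%) were called lower and 75 (13.7%) higher. Of the genes with Rbm3 sites only, 190 of 600 (31.7%) were called lower and 37 (6.17%) higher. Genes with sites of both had 76 of 358 (21.2%) lower and 34 (9.50%) higher, and genes without a site 1790 of 9394 (19.1%) lower and 1274 (13.6%) higher. The median log2 difference was 0.12 for Cirbp only, -0.29 for Rbm3 only, -0.09 for both, -0.00 for no site and -0.02 over all genes. No test was made between the classes.

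Cirbp only was also below Rbm3 only within each range of expression. At 1 to 5 FPKM 12.5% of genes with Cirbp sites only (5 of 40) and 24.4% of genes with Rbm3 sites only (19 of 78) were called lower. At 5 to 20 FPKM these shares were 18.9% for Cirbp only and 33.0% for Rbm3 only. At 20 to 100 FPKM they were 18.0% for Cirbp only and 34.1% for Rbm3 only. At 100 FPKM or more they were 13.9% for Cirbp only and 21.9% for Rbm3 only, from few genes, 5 of 36 and 7 of 32. Genes without a site had 12.9%, 21.9%, 20.6% and 13.3% in these ranges, from low to high. Genes with sites of both had 5.26%, 18.7%, 24.4% and 24.3%. Length moved with the result. Among transcripts of 4000 nt or more, 21.2% of genes with Cirbp sites only, 38.3% with Rbm3 sites only and 33.1% without a site were called lower. At 2000 to 4000 nt 16.8% of genes with Cirbp sites only, 32.7% with Rbm3 sites only and 19.6% without a site were called lower. At 1000 to 2000 nt the shares were closer, 12.2% for Cirbp only, 14.9% for Rbm3 only and 10.5% for no site, and under 1000 nt the bound classes hold at most 20 genes. Genes with sites of both had 25.1% at 4000 nt or more, 19.5% at 2000 to 4000 nt and 6.45% at 1000 to 2000 nt. The part of length in the result was not tested beyond these bins.

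Of the bound genes, 509 were called at 32 °C with all libraries. There were 124 without 32 °C library 1, 58 without 32 °C library 2, 101 without mock 37 °C library 1 and 59 without mock 37 °C library 2. The share called lower was smaller for Cirbp only than for Rbm3 only in 15 of 16 alternative settings, the exception being the fit without an FPKM filter, and larger for Rbm3 only than for no site in 16 of 16. When log2 values were centred on the library median, the median difference of all genes moved to 0.11, and 15.8% of all genes were called lower and 19.4% higher. With that scaling 13.5% of genes with Cirbp sites only were called lower and 20.9% higher, and 25.7% of genes with Rbm3 sites only were called lower and 8.67% higher.

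Of the 99 chromatin regulators 3 were called higher at 32 °C and 52 lower, with 0 higher and 25 lower among the 34 bound ones. The median transcript of that list is 5098 nt long, and the part of length in this count was not tested. Tubulins and microtubule motors had 2 of 53 called higher and 30 lower, with 0 higher and 2 lower among the 8 bound ones. Of the 50 nuclear pore and transport genes 4 were called higher and 9 lower, with 0 higher and 1 lower among the 20 bound ones. Of the 43 other RNA-binding regulators 2 were called higher and 13 lower, with 2 higher and 8 lower among the 31 bound ones, and of the 19 hnRNP genes 1 was called higher and 5 lower. Of the 275 numbered zinc finger genes 10 were called higher and 33 lower, with 2 higher and 10 lower among the 44 bound ones. Of the 34 TGF-beta and BMP signalling genes 2 were called higher and 11 lower, with 0 higher and 3 lower among the 11 bound ones. Of the 22 immediate early and AP-1 factors 1 was called higher and 11 lower, with 0 higher and 4 lower among the 7 bound ones. The shares over all genes, 13.0% higher and 19.8% lower, stand beside all these counts.

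**Figure D5:**
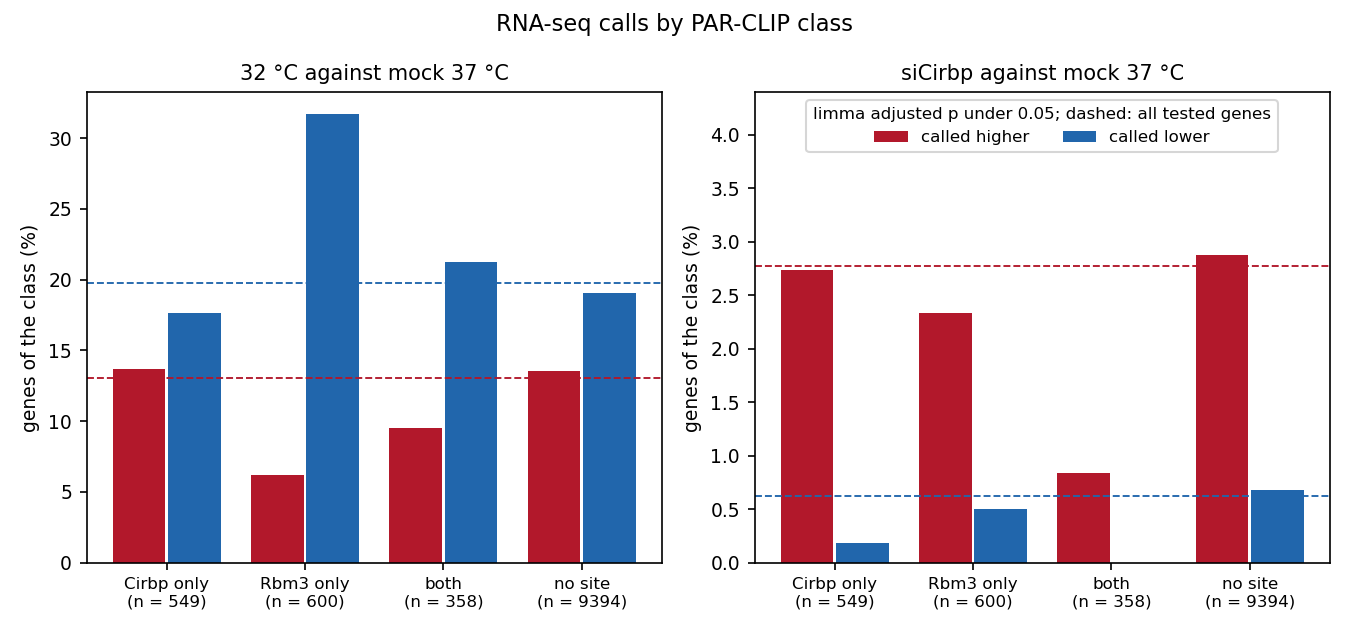
Share of genes called higher or lower by limma (vertical axis, % of the class) at 32 °C (left) and in siCirbp libraries (right), each against mock 37 °C, for genes with sites of Cirbp only, Rbm3 only, both or none. The dashed lines give the shares over all tested genes. The tallest bar is the 31.7% of genes with Rbm3 sites only that were called lower at 32 °C.

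Several of the most occupied genes were among those called at 32 °C. Arid1a, with 11 Rbm3 sites, had 6.08 and 5.28 FPKM at 32 °C, against 15.7 and 16.9 FPKM at 37 °C. The groups did not overlap, and the log2 difference was -1.37 (SE 0.20, limma adjusted p = 0.00459, 0.00342 to 0.0596 with 1 library left out). Prrc2a had 23.4 and 20.7 FPKM at 32 °C, against 58.8 and 69.6 FPKM at 37 °C, a log2 difference of -1.50 (SE 0.18, limma adjusted p = 0.00267, at most 0.0410 with 1 library left out). Maz had 34.02 and 37.7 FPKM at 32 °C, against 58.2 and 67.2 FPKM at 37 °C, a log2 difference of -0.79 (SE 0.16, limma adjusted p = 0.0116, up to 0.109 with 1 library left out). The call of Arid1a was lost without 32 °C library 2 or mock 37 °C library 2, and that of Maz without any 1 of the 32 °C and mock 37 °C libraries. The other 5 of the 8 genes with the largest excess of Rbm3 sites did not pass, among them Ythdf2 with 9.54 and 9.22 FPKM at 32 °C, against 8.59 and 8.79 FPKM at 37 °C.

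Of the 8 genes with the largest excess of Cirbp sites, 1 rose and 1 fell. Cnbp, with 9 Cirbp sites, had 297 and 361 FPKM at 32 °C, against 158 and 156 FPKM at 37 °C, a log2 difference of 1.05 (SE 0.16, limma adjusted p = 0.00484, up to 0.0605 with 1 library left out). Zc3h7b, with 10 Cirbp sites, had 14.6 and 14.7 FPKM at 32 °C, against 23 and 26.03 FPKM at 37 °C, a log2 difference of -0.70 (SE 0.18, limma adjusted p = 0.0242, up to 0.160 with 1 library left out). Stag2 had 41.9 and 40.2 FPKM at 32 °C, against 40.5 and 40.8 FPKM at 37 °C, and the groups overlap. Of the genes with most sites of both, Mll2 fell, with 10.4 and 8.10 FPKM at 32 °C, against 17.0 and 18.7 FPKM at 37 °C (log2 difference -0.89, SE 0.20, limma adjusted p = 0.0156, up to 0.133 with 1 library left out). Leaving out 32 °C library 2 or mock 37 °C library 2 ended the call of Cnbp, and leaving out any 1 of the 4 libraries compared ended those of Zc3h7b and Mll2.

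The bound genes with the smallest p at 32 °C each held 1 site. The heparan sulphate proteoglycan gene Sdc2, with a Cirbp site, had 151 and 158 FPKM at 32 °C, against 66.1 and 63.7 FPKM at 37 °C (log2 difference 1.24, SE 0.13, limma adjusted p = 0.00237). The kinase gene Riok3 and the proteasome ATPase gene Psmc2, each with a Cirbp site, rose by 1.21 and 1.15 on the log2 scale. The mitotic kinase gene Aurkb, with an Rbm3 site, had 1.79 and 1.89 FPKM at 32 °C, against 13.9 and 14.2 FPKM at 37 °C (log2 difference -2.41, SE 0.13, limma adjusted p = 0.000992). The cyclin gene Ccna2 and the kinesin gene Kif18b, each with a Cirbp site, fell by 2.46 and 2.23 on the log2 scale. All 6 passed with any 1 library left out, with adjusted p from limma of at most 0.0447. The fall was shared by mitosis genes without sites. Of the 47 in the list 42 were called lower, and of its 7 bound genes 6.

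With siCirbp few genes of any occupancy class were called. Over all genes 3.39% were called, 2.77% higher and 0.624% lower. Among genes with Cirbp sites only 15 of 549 (2.73%) were called higher and 1 lower. Among those with Rbm3 sites only 14 of 600 (2.33%) were called higher and 3 lower, and among those with both 3 of 358 (0.838%) were called higher and 0 lower. Genes without a site had 270 of 9394 (2.87%) called higher and 64 lower. The classes were not tested against each other. The median log2 difference was 0.09 for Cirbp only, 0.07 for Rbm3 only, 0.10 for both and 0.08 over all genes. The 36 calls in bound genes became 0 without either 32 °C library, 1 without either mock 37 °C library, 63 without siCirbp library 1, 0 without siCirbp library 2 and 217 without either siRbm3 library. With the replicate number as a block there were 0.

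The histone acetyltransferase gene Hat1, with 2 Cirbp sites, had 91.6 and 95.6 FPKM in siCirbp libraries, against 33.9 and 32.6 FPKM in mock libraries (log2 difference 1.47, SE 0.16, limma adjusted p = 0.0211, 0.00907 to 0.225 with 1 library left out). Ccna2 and Aurkb, which fell at 32 °C, rose here by 1.33 and 1.15 on the log2 scale. The rise was shared by cell-cycle genes without sites, since 21 of the 47 mitosis genes and 35 of the 60 G1/S and DNA replication genes were called higher, of which 3 and 4 were bound. Both comparisons use the same mock 37 °C libraries. Egr1, with a Cirbp site, had 58.6 and 66.0 FPKM in siCirbp libraries, against 211 and 230 FPKM in mock libraries (log2 difference -1.81, SE 0.23, limma adjusted p = 0.0223, up to 0.237 with 1 library left out). The AP-1 gene Junb and the polycystin gene Pkd1, each with an Rbm3 site, fell by 1.29 and 0.65 on the log2 scale, with limma adjusted p = 0.0449 and 0.0491. Egr1, Junb and Pkd1 were also called lower at 32 °C, against the same mock libraries, with log2 differences of -2.47, -2.14 and -0.73 and limma adjusted p = 0.00191, 0.00272 and 0.00865. With the replicate block the adjusted p from limma of these genes in siCirbp libraries lay between 0.0552 and 0.0810.

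In the libraries labelled siRbm3 no gene passed limma's threshold, bound or not, and 13.3% of all genes had an unadjusted p under 0.05. That share was 12.2% for Cirbp only, 13.2% for Rbm3 only and 13.97% for both. By direction, 34 genes with Cirbp sites only had such a p with a higher value and 33 with a lower one. With Rbm3 sites only there were 54 higher and 25 lower, with both 21 higher and 29 lower, and over all genes 1004 higher and 447 lower. The median log2 difference was -0.01 for Cirbp only, 0.11 for Rbm3 only, -0.05 for both and 0.12 over all genes. The smallest unadjusted p among bound genes was that of Egr1, with 80.5 and 48.7 FPKM in the libraries labelled siRbm3, against 211 and 230 FPKM in mock libraries (log2 difference -1.80, SE 0.23, limma adjusted p = 0.125). Trps1, with 1 Cirbp and 3 Rbm3 sites, and Zfp281, with 3 Cirbp and 6 Rbm3 sites, had log2 differences of -0.97 and -1.19. Aurkb, Atf5 and Depdc1b had the smallest p among higher values, with log2 differences of 0.58, 0.90 and 0.66. For these 5 genes limma's adjusted p was 0.350. The 2 libraries of that label differed widely for several heavily occupied genes. Stag2 had 29.3 and 13.4 FPKM in them, against 40.5 and 40.8 FPKM in mock libraries. Without library 1, whose Rbm3 level was above both mock libraries, 951 of all genes passed, 7.504% of those tested being lower and 1.22% higher, and 241 of them were bound. The share called lower was then 17.9% for Cirbp only, 8.33% for Rbm3 only, 23.2% for both and 6.25% for no site, resting on library 2 alone, which is assumed to vary like the other groups. Without library 2 there were 3 bound genes.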

How the data were processed

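FPKM values were used as deposited by the authors for 28702 RefSeq transcripts of 22552 genes, and summed per gene. Reads were aligned with TopHat 1.1.2 to mm9, per the submitters' processing notes. The versions of Cufflinks and of the annotation, and the caller of the PAR-CLIP sites, are not given in the sources used here. The score of each site, as deposited by the authors, runs from 1 to 1000 on a scale that is not stated. Coverage, a per-base depth of each transcript in the deposited tables, was divided by FPKM to recover the mapped fragments, using the 76 nt reads of the labels. Transcript length in nt is as given per the file headers. Sites were taken on either strand. Strand and miRNA sequences came from RefSeq tables of GRCm38.p6, with no coordinates carried between builds.

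Values of log2(FPKM + 1) for genes of mean FPKM 1 or more were fitted with limma 3.58.1 (R 4.3.3), using 4 group means over 8 libraries, which leaves 4 residual degrees of freedom, and a trended, robust empirical Bayes step. Fold changes are on that log2 scale, which understates changes of low genes. P-values were two-sided, adjusted by Benjamini-Hochberg over all 10901 genes and called under 0.05, and the fit was tested on simulated data. The PAR-CLIP libraries, 1 per protein, were compared by counts without a test. Genes named are Cirbp and Rbm3, the 8 with the largest difference in site counts in each direction, the 8 with the largest smaller count, up to 4 members with most sites of each list described, and per RNA-seq comparison the 3 bound genes with the smallest p in each direction. A gene that this rule names is not reported here. Members, lists and rules were chosen with earlier results of these data known. Correlations of residuals between libraries of the same replicate number ran from -0.153 to 0.0914, so the numbers were not taken to pair libraries. Alternatives cover sites, loci, filters, strand and the fit.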

Additional observations from a re-analysis of the deposited data

Results flagged for a closer look

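Some sites lie outside the genes compared. Of 1941 Cirbp sites, 369 (19%) overlapped no listed gene locus, and of 2118 Rbm3 sites 412 (19.5%). A further 94 Cirbp sites (4.84%) and 176 Rbm3 sites (8.31%) lay only in genes below the FPKM minimum. The mitochondrial chromosome held 9 Cirbp sites and 4 Rbm3 sites. These sites entered no gene count, and no untagged control library was used here against which to set them.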

How the results depend on the processing

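Keeping only sites of at least the median score of their library gave 362 genes with Cirbp sites only, 395 with Rbm3 sites only and 193 with both, 32 genes leaning to Cirbp and 38 to Rbm3, and 2 lists leaning to Rbm3. Without the member with most sites of each list, a setting added after seeing the data as were sense sites only and no genes under 200 nt, 3 lists leaned to Rbm3. Of 16 settings, the lean held in all for nuclear pore, phosphatase, spliceosome, helicase, other RNA-binding, zinc finger and TGF-beta lists, and in 7 for the MAP kinase list. The Cirbp share of the tubulin list became 50% with median-score sites. Bound genes called at 32 °C numbered 4 with no FPKM filter, 1056 with only the 2 groups compared, 457 with the replicate block and 58 to 752 with 1 library left out. For siCirbp they were 0 with no FPKM filter, 0 with 2 groups, 0 with the replicate block and 0 to 217 with 1 library left out. For siRbm3 they were 1 with the highest transcript only, 0 with the replicate block and 0 to 241 with 1 library left out. The cause was not tested. Of the repeats for named genes, 309 kept their side of the threshold, 85 lost it and 5 gained it, with no change of direction. With 1 PAR-CLIP library per protein, lists of few sites cannot be told from an even split.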
